A study of Mus musculus with 10 samples.

Results

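The transcripts described are those of 10 C-type lectin receptors of myeloid cells, *Clec4e*, *Clec4d*, *Clec4n*, *Clec5a*, *Clec4a2*, *Clec12a*, *Clec4a1*, *Clec4a3*, *Clec10a* and *Mgl2*, picked by gene name from the 55487 genes of the count table, and all 10 were expressed above the filter on low counts. They were compared between ARG1+ and ARG1- spinal cord cells of 5 young adult mice, male and on the C57BL/6 background, at the peak of experimental autoimmune encephalomyelitis (EAE), a model of multiple sclerosis set off by immunization with a myelin peptide in complete Freund's adjuvant together with pertussis toxin. All mice carried the *Arg1*-eYFP reporter allele (Arg1tm1Lky), which marks cells by activity of the *Arg1* promoter. From each mouse, 200000 YFP+ (ARG1+) and 100000 YFP- (ARG1-) viable Ly6G-CD3-CD45+CX3CR1+ cells were taken, giving 5 libraries in each group, named m2, m6, m234, m235 and m236 after the animals. No healthy animals were sequenced, and the gate does not part monocyte-derived cells from microglia or border-associated macrophages.

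The library totals were 28870482 to 33826355 counts in ARG1+ and 8396863 to 35455643 counts in ARG1- cells, the lowest in the ARG1- library of m234. *Arg1* was at 814 ± 174 counts per 1000000 library counts (CPM) in the ARG1+ libraries (SD, n = 5), and the ARG1- libraries had 18.4 ± 4.96 CPM (SD, n = 5). Of the genes of the gate, *Cx3cr1* and *Ptprc* (CD45) were above the filter and *Cd3e* and *Ly6g* below it, and the myeloid genes *Csf1r* and *Itgam* were also above it. In ARG1+ and ARG1- cells *Cx3cr1* was at 140 ± 67.0 and 282 ± 176 CPM and *Ptprc* at 623 ± 37.5 and 728 ± 70.3 CPM. *Csf1r* was at 2142 ± 220 and 2462 ± 434 CPM and *Itgam* at 551 ± 69.7 and 432 ± 48.7 CPM (SD, n = 5 each). The ARG1- library of m234 also stood apart in its microglia transcripts: the summed level of 12 microglia markers was 4743 CPM there and 1537 to 2387 CPM in the other ARG1- libraries, against 1332 to 1968 CPM in ARG1+ cells. In sorted bulk RNA, fewer cells of a type and less RNA per cell cannot be told apart.

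C-type lectin receptors bind sugars, lipids or proteins of microbes and damaged cells. Some signal through an adaptor with an activating motif, Fc receptor gamma chain (*Fcer1g*) or DAP12 (*Tyrobp*), to the kinase Syk and on through CARD9, BCL10 and MALT1 to NF-κB. Others carry an inhibitory motif of their own and recruit phosphatases such as SHP-1 (*Ptpn6*). The mycobacteria in complete Freund's adjuvant hold trehalose dimycolate, the best known ligand of the *Clec4e* product Mincle.

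Of the 10 genes, 6 lie together on chromosome 6, from 122921848 to 123289870 (GRCm38), a stretch of 368 kb in which they follow each other in the order *Clec4a1*, *Clec4a3*, *Clec4a2*, *Clec4n*, *Clec4d* and *Clec4e*, with *Clec4a4*, *Clec4b1* and *Clec4b2* between *Clec4a3* and *Clec4n*. *Clec5a* and *Clec12a* lie elsewhere on chromosome 6, and *Mgl2* and *Clec10a* are close together on chromosome 11. The promoters of *Clec4d* and *Clec4e*, neighbours whose log2 fold changes had opposite signs, and of *Clec5a* and *Clec4a3*, which were lower in ARG1+ cells, are shown to let the letters near their starts be compared. They are the 250 bases before the annotated start (RefSeq, GRCm38.p6), read 5′ to 3′ along the gene.
Clec4d, chr6:123261857-123262106, forward strand: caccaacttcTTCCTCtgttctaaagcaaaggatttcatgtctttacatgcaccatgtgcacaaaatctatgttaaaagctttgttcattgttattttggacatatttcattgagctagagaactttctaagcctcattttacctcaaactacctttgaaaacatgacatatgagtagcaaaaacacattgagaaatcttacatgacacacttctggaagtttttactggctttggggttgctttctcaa
Clec4e, chr6:123289872-123290121, reverse strand: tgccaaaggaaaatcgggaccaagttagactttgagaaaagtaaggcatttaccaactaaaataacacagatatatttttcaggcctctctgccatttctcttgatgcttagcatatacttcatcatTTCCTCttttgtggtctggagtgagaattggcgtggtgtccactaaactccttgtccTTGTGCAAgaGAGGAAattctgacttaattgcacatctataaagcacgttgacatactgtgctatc
Clec5a, chr6:40585806-40586055, reverse strand: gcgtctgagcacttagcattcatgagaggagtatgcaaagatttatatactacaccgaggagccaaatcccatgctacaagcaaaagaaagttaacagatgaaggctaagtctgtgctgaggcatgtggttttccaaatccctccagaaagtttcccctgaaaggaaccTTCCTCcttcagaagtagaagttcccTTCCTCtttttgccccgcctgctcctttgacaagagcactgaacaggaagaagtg
Clec4a3, chr6:122952265-122952514, forward strand: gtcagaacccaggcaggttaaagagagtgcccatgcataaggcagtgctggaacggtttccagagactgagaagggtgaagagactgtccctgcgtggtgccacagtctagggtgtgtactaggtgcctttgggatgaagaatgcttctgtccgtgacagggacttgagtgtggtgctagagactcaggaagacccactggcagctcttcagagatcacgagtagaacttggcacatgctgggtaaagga
Capitals mark matches on either strand to GAGGAA, the core of sites for the myeloid factor PU.1, and to TTGCNNAA, a form of the C/EBP site, and none of these matches overlap. RefSeq windows were at hand for 8 of the 10 genes. These genes have 9 windows, *Clec4a3* having a second annotated start. The windows of *Clec4a3* overlap, and its second window resembles part of the *Clec4a1* window, so the 9 are not independent. GAGGAA was in 7 of the 9, against 23.3% of 32841 windows of the same length over all genes. *Clec4e* has it 56 and 123 bases before the start (counted to the first base of the match), *Clec5a* 55 and 81 and *Clec4d* 240, and the window shown for *Clec4a3* has none, while its second window has it 50 bases before the start. TTGCNNAA was in the windows of *Clec4e*, 66 bases before the start, and *Clec12a*, against 9.57% of all windows. TGANTCA, the AP-1 site, was in that of *Clec12a* (6.75% of all windows).

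Expressed per kilobase of exon, the transcripts fell into clear tiers that were alike in ARG1+ and ARG1- cells. In ARG1+ cells *Clec4d* (324 ± 57.1 CPM per kb), *Clec4n* (313 ± 82.1 CPM per kb) and *Clec4e* (181 ± 21.7 CPM per kb; SD, n = 5 each) led, and the ranges of neighbours in this order overlapped. *Clec12a* followed at 85.3 ± 14.4 CPM per kb and *Clec5a* at 38.8 ± 5.23 CPM per kb, each with a range apart from the genes above and below. *Clec4a1*, at 24.9 ± 4.13 CPM per kb, and *Clec4a3*, at 24.9 ± 1.80 CPM per kb, could not be ordered. *Clec4a2* was at 14.0 ± 2.26, *Clec10a* at 2.09 ± 0.589 and *Mgl2* at 0.629 ± 0.221 CPM per kb, each separate from the next. In ARG1- cells the order was the same but for the pairs *Clec4n* and *Clec4d*, and *Clec4a3* and *Clec4a1*, which changed places within overlapping ranges, and *Clec10a* and *Mgl2* also overlapped there.

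In the comparison of ARG1+ with ARG1- cells, 2 of the 10 receptors, *Clec5a* and *Clec4a3*, fell and 0 rose (edgeR's quasi-likelihood test, false discovery rate (FDR) below 0.05). Over all 13740 tested genes, 6.15% were lower and 6.82% higher at this limit. Of the 10 genes, 4 had an unadjusted p below 0.05, *Clec4d* and *Mgl2* besides those 2, against 30.0% of all tested genes. DESeq2 and limma-trend also called 0 of the 10 higher. In the edgeR fit 0 of the 10 passed the added limit of 1 log2 unit, which 1.45% of all tested genes did. The median log2 fold change (ARG1+ over ARG1-) of the 10 genes was -0.20, against -0.0022 over all tested genes. With the animal as a block in the fit, which compares the 2 libraries of each mouse, 6 of the 10 passed the FDR limit: *Clec4d* and *Clec4a2* higher, *Clec5a*, *Clec4a3*, *Clec4e* and *Mgl2* lower. This fit called 16.8% of all tested genes higher and 18.3% lower. *Mgl2* alone, 1 of the 10, then also passed the limit of 1 log2 unit, as 2.21% of all tested genes did.

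**Figure D1:**
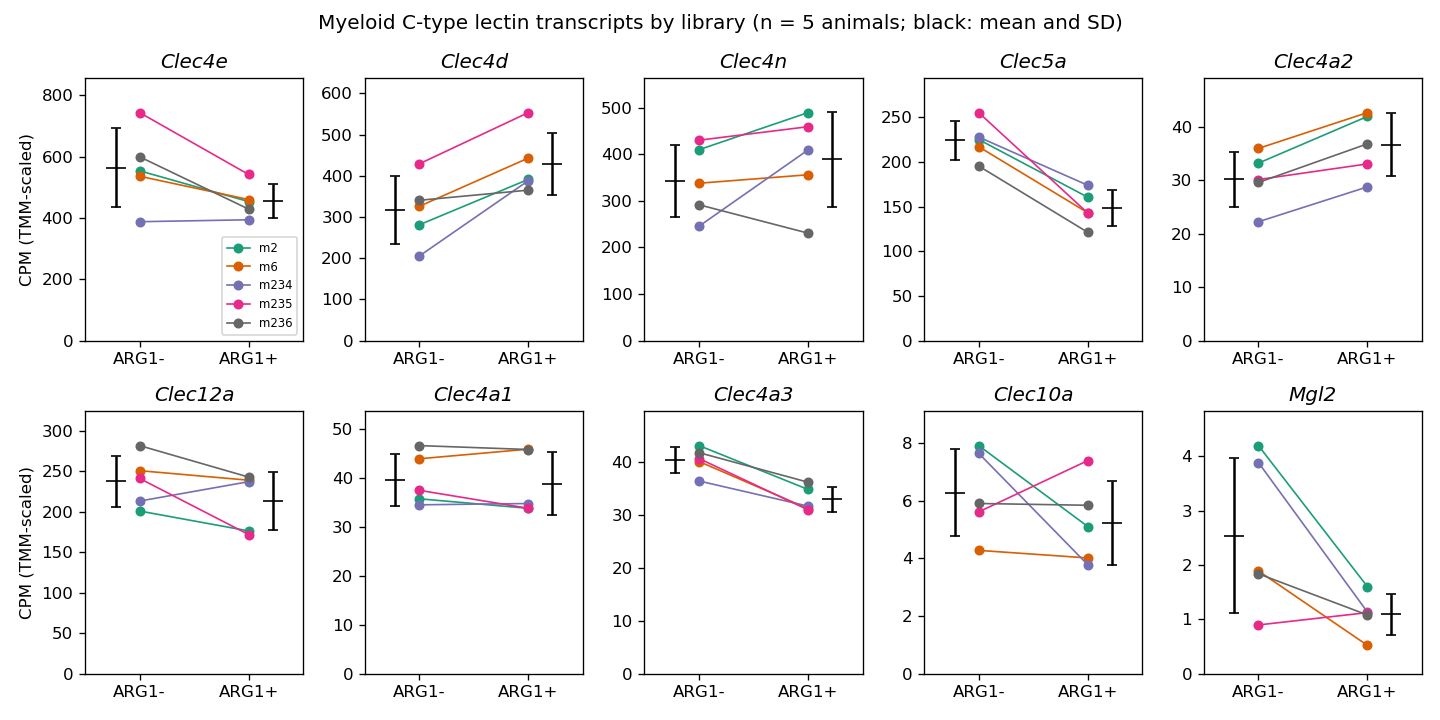
CPM of each receptor transcript (y axis, from 0) in the ARG1- and ARG1+ libraries (x axis), with a line joining the 2 libraries of each animal and the mean and SD of each group in black (n = 5). *Clec5a* and *Clec4a3* fall in every animal without overlap of the groups, and *Clec4d* and *Clec4a2* are higher in the ARG1+ library of every animal. The lines of *Clec4e*, *Clec4n*, *Clec12a*, *Clec4a1*, *Clec10a* and *Mgl2* run in both directions.

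Among the receptors that signal through Fc receptor gamma chain, *Clec4e* (Mincle; chromosome 6, 123281789 to 123289870, reverse strand) recognizes mycobacterial and damage-associated lipids. It was at 453, 460, 394, 541 and 428 CPM in the ARG1+ libraries of m2, m6, m234, m235 and m236 and at 553, 536, 387, 743 and 599 CPM in the ARG1- libraries. The ARG1+ library was the lower one in 4 of 5 animals, and the groups overlapped, the ARG1- library of m234 lying lowest of all 10 and the ARG1+ library of m235 lying just above the ARG1- library of m6. The log2 fold change was -0.31 (standard error 0.144, 95% confidence interval -0.62 to 0.0036, FDR 0.172). With the animal as a block it was -0.29 (FDR 0.00815), and without the ARG1- library of m234 it was -0.41 (standard error 0.111, FDR 0.0342). Without the ARG1- library of m235 it was -0.19 and did not pass.

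*Clec4d* (MCL), whose product pairs with Mincle on the cell surface, lies beside *Clec4e* on the opposite strand (123262111 to 123275265), the 3′ ends of the genes facing each other. Its ARG1+ libraries had 391, 443, 388, 554 and 365 CPM, in the same order of animals, and its ARG1- libraries 281, 326, 205, 429 and 341 CPM. The ARG1+ library was higher in 5 of 5 animals, which held for 20.0% of all tested genes, although the groups overlapped through the high ARG1- value of m235. The log2 fold change was 0.44 (standard error 0.172, 95% confidence interval 0.061 to 0.81, FDR 0.112). It was 0.46 with the block (FDR 0.00333) and 0.57 without the ARG1- library of m235 (FDR 0.0397).

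Since both genes were read from the same libraries, their ratio does not depend on library scaling. For each *Clec4e* read there were 0.864, 0.964, 0.986, 1.02 and 0.852 *Clec4d* reads in the ARG1+ libraries of m2, m6, m234, m235 and m236, and 0.508, 0.608, 0.530, 0.577 and 0.568 in the ARG1- libraries. The ratio was higher in ARG1+ cells in all 5 animals, by 1.50 to 1.86 times, and the groups did not overlap, with m234 no exception. This ratio was chosen after the values were seen and is given as a description without a test. Of the 45 pairs of the 10 genes, 4 had ratios that did not overlap between the groups, and of 13710 pairs of neighbouring tested genes in the genome 10.5% did not overlap and 9.02% shifted by as much or more.

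**Figure D2:**
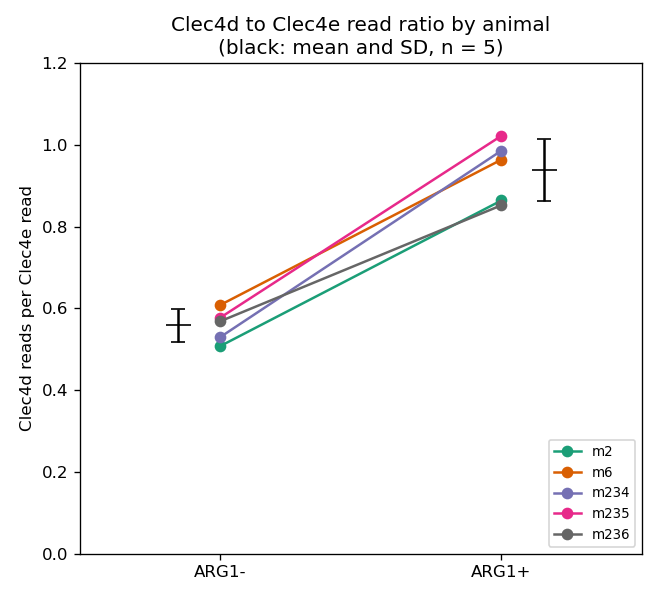
Reads of *Clec4d* per read of *Clec4e* (y axis, from 0) in the ARG1- and ARG1+ libraries (x axis), with a line for each animal and the mean and SD of each group in black (n = 5). All ARG1+ libraries (0.852 to 1.02) lie above all ARG1- libraries (0.508 to 0.608).

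*Clec4n* (Dectin-2), a receptor for fungal and mycobacterial mannans, lies next to *Clec4d* (123229843 to 123247021, forward strand). It had 489, 356, 409, 459 and 231 CPM in the ARG1+ libraries and 410, 338, 245, 430 and 291 CPM in the ARG1- libraries, so that the groups overlapped widely, and m236 ran against the other animals. Its log2 fold change was 0.18 (standard error 0.198, 95% confidence interval -0.25 to 0.61, FDR 0.579), and omissions moved it from 0.063, without both libraries of m234, to 0.32, without the ARG1+ library of m236. The summed level of *Clec4e*, *Clec4d* and *Clec4n* was 1272 ± 195 CPM in ARG1+ libraries, close to the 1223 ± 271 CPM of ARG1- libraries (SD, n = 5 each).

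*Clec5a* (MDL-1; chromosome 6, 40574894 to 40585821, reverse strand) couples to DAP12 and had the lowest FDR of the 10. It was at 161, 143, 174, 143 and 121 CPM in the ARG1+ libraries and at 225, 217, 228, 255 and 196 CPM in the ARG1- libraries, so that every ARG1+ library lay below every ARG1- library. Non-overlap in this direction was seen for 5.20% of all tested genes. Its log2 fold change was -0.60 (standard error 0.0967, 95% confidence interval -0.81 to -0.39, FDR 0.00274). The 2-sided exact permutation test of log2 CPM gave p = 0.00794, the smallest that 5 unpaired libraries against 5 allow (1 of 10 such tests, unadjusted). This test left out the pairing of libraries by animal. On omission of single libraries or animals the log2 fold change stayed between -0.66 and -0.53, with an FDR of 0.0247 at most.

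*Clec4a2* (DCIR1), a receptor with an inhibitory motif, had 42.0, 42.7, 28.8, 33.1 and 36.8 CPM in the ARG1+ libraries and 33.2, 36.0, 22.2, 30.2 and 29.6 CPM in the ARG1- libraries. Each animal had the higher level in its ARG1+ library, but the animals differed among themselves by more than this step, with m234 lowest in both groups. Between the groups the log2 fold change was 0.26 (standard error 0.131, 95% confidence interval -0.021 to 0.55, FDR 0.197) and with the block 0.28 (FDR 0.00169). Of its 50-base stretches, 6.83% are shared with other genes, most of them with *Clec4a4* (DCIR2), so that reads between these are uncertain. *Clec4a4* itself was at 3.69 and 2.57 CPM on average (log2 fold change 0.46, FDR 0.202).

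*Clec12a* (MICL), an inhibitory receptor for uric acid crystals from dead cells, had 176, 239, 237, 172 and 243 CPM in the ARG1+ libraries and 201, 251, 213, 241 and 282 CPM in the ARG1- libraries. The groups overlapped and m234 ran against the other 4 animals. For the groups the log2 fold change was -0.16 (standard error 0.122, 95% confidence interval -0.42 to 0.11, FDR 0.423, and 0.107 with the block). It ranged from -0.23, without both libraries of m234, to -0.077, without both of m235.

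*Clec4a3* and *Clec4a1* are the remaining members of the *Clec4a* group. *Clec4a3* (DCIR3; 122952515 to 122969875, forward strand) was at 34.9, 31.3, 31.7, 31.0 and 36.3 CPM in the ARG1+ and at 43.2, 40.2, 36.5, 40.7 and 41.9 CPM in the ARG1- libraries, lower in all 5 animals (21.0% of all tested genes) and without overlap. Its log2 fold change of -0.30 was small but even (standard error 0.0647, 95% confidence interval -0.44 to -0.16, FDR 0.0122, exact permutation p = 0.00794, again without the pairing). The FDR rose to 0.0517 without both libraries of m2 and to 0.0739 without both libraries of m6, where the log2 fold change was -0.29 and -0.28. *Clec4a1* (DCIR4; 122921848 to 122934619, forward strand), which lies next to it, ranged from 33.8 to 45.9 CPM in ARG1+ and from 34.5 to 46.6 CPM in ARG1- cells, 2 animals being higher and 3 lower. Its log2 fold change was -0.036 (95% confidence interval -0.29 to 0.22, FDR 0.869), and the ratio of the 2 genes overlapped between the groups.

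The galactose-type lectins *Clec10a* (MGL1) and *Mgl2* (MGL2), which bind galactose and N-acetylgalactosamine and are widely used to mark dendritic cells and alternatively activated macrophages, were the least abundant. *Mgl2* (chromosome 11, 70130329 to 70137550, forward strand) had 1.60, 0.518, 1.13, 1.12 and 1.08 CPM in the ARG1+ libraries and 4.20, 1.89, 3.88, 0.894 and 1.84 CPM in the ARG1- libraries, from 16 to 133 counts. It was lower in the ARG1+ library of 4 animals and higher in that of m235. The log2 fold change of -1.17 was the largest of the 10 in size but spread widely (standard error 0.403, 95% confidence interval -2.05 to -0.29, FDR 0.0762). It passed the limit with the block (-1.11, FDR 0.0141), with DESeq2 (FDR 0.0226), and without the ARG1- library of m235 (-1.39, FDR 0.0260) or both libraries of m235 (-1.40, FDR 0.0439).

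*Clec10a* (chromosome 11, 70156197 to 70170834, forward strand) had 5.11, 4.02, 3.78, 7.40 and 5.85 CPM in the ARG1+ and 7.92, 4.28, 7.65, 5.62 and 5.91 CPM in the ARG1- libraries, with overlapping groups. Its log2 fold change was -0.24 (standard error 0.212, 95% confidence interval -0.70 to 0.22, FDR 0.473), from -0.43 without both libraries of m235 to -0.081 without both of m234. *Mgl2* and *Clec10a* share 13.1% and 9.02% of their 50-base stretches with other genes, mainly each other. Of 20 markers of conventional dendritic cells 15 were tested, 9 fell and 1 rose (12 and 1 with the block). Over all tested genes 6.15% fell and 6.82% rose (18.3% and 16.8% with the block). The largest decrease was that of *Flt3*, the growth factor receptor of this lineage (log2 fold change -3.59, standard error 0.375, FDR 2.40e-04). *Flt3* was at 0.0606 to 0.425 CPM in ARG1+ and 2.18 to 6.12 CPM in ARG1- cells. Like *Dpp4*, *Kmo* and *Zbtb46*, it was below 1 CPM in every ARG1+ library. These genes passed the filter only through the ARG1- libraries. The increase was that of *Cd24a* (0.75, standard error 0.153, FDR 0.00914). *Itgax*, with the highest CPM of the list, was at 199 ± 90.9 and 255 ± 69.3 CPM (log2 fold change -0.35, FDR 0.441). The summed level of the list was 484 to 715 CPM in ARG1+ and 510 to 719 CPM in ARG1- cells. Most of this sum came from *Itgax*, *Cd24a* (213 and 127 CPM in ARG1+ and ARG1- cells) and *Wdfy4* (159 and 161 CPM), so it says little of the scarcer genes that fell. None of the 20 was at 0 in all libraries, and *Cd209a*, another marker of the list, was below the filter. The part of dendritic cells in the *Mgl2* values was not tested.

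**Figure D3:**
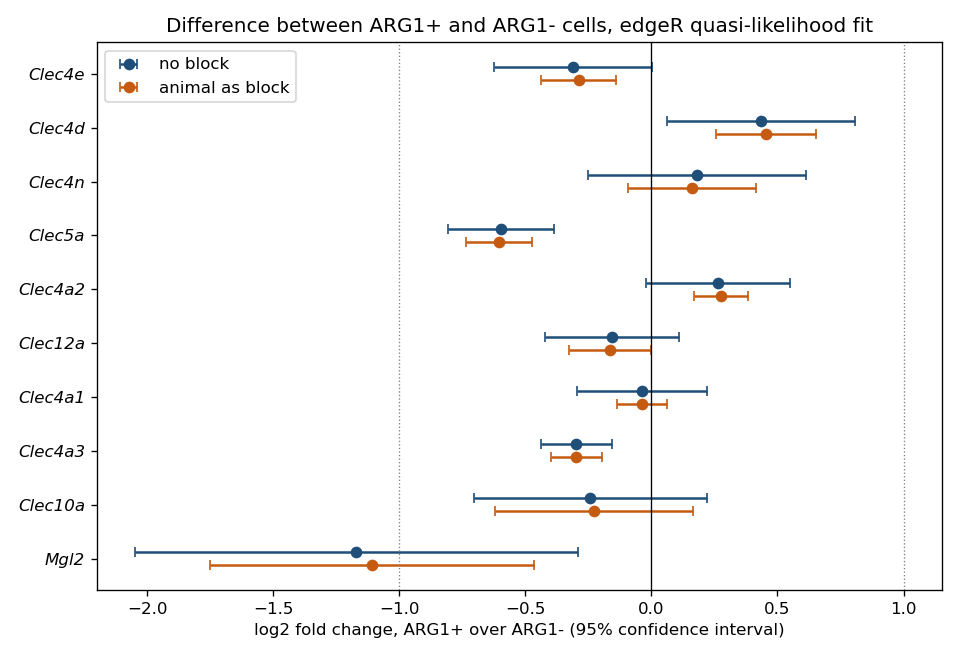
Log2 fold change of each receptor transcript, ARG1+ over ARG1- (x axis), with 95% confidence intervals from the fit without a block (blue) and with the animal as a block (orange). Dotted lines mark a change of 1 log2 unit. The intervals narrow with the block. Those of *Clec5a*, *Clec4a3* and *Mgl2* lie below 0 in both fits and those of *Clec4d* above 0. In the fit without a block *Mgl2* and *Clec4d* did not pass the FDR limit. Only the estimate of *Mgl2* is beyond 1 log2 unit.

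The shared adaptors of these receptors differed little between the groups. *Fcer1g* was at 493 ± 19.9 and 481 ± 48.6 CPM in ARG1+ and ARG1- cells (log2 fold change 0.036, 95% confidence interval -0.12 to 0.19, FDR 0.773) and *Tyrobp* at 568 ± 41.0 and 561 ± 18.9 CPM (0.018, -0.11 to 0.15, FDR 0.873). The same held for the kinase *Syk* (0.014, -0.14 to 0.17, FDR 0.922). With raw library totals in place of TMM scaling, the signs of these 3 turned. *Card9*, downstream of Syk, had -0.098 (-0.27 to 0.071, FDR 0.425).

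Of 30 adaptor, kinase and downstream genes, all tested, 2 rose and 8 fell, with a median log2 fold change of -0.12. Over all tested genes 6.82% rose and 6.15% fell. Among the genes that fell were the Src family kinase gene *Lyn* (-0.37, standard error 0.0540, FDR 0.00143), the phosphatase gene *Ptpn6* (-0.20, standard error 0.0513, FDR 0.0272), *Plcg2* (-0.30, FDR 0.0256), *Prkcd* (-0.37, FDR 0.0372), which encodes the kinase that acts on CARD9, *Malt1* (-0.29, FDR 0.0181) and the NF-κB subunits *Nfkb1* (-0.43, standard error 0.0758, FDR 0.00417) and *Rela* (-0.21, FDR 0.0219). *Vav3*, an exchange factor for small GTPases (0.48, standard error 0.120, FDR 0.0240), and *Hcst*, the adaptor DAP10 (0.43, standard error 0.109, FDR 0.0240), rose. With the block 16 fell and the same number, 2, rose, where 18.3% of all tested genes fell and 16.8% rose. Left-out libraries ended the calls of *Prkcd*, *Ptpn6* and *Vav3* in 10, 8 and 6 of 15 settings, and that of *Nfkb1* in 0. The call of *Ptpn6* was also lost without a filter on low counts (FDR 0.127).

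**Figure D4:**
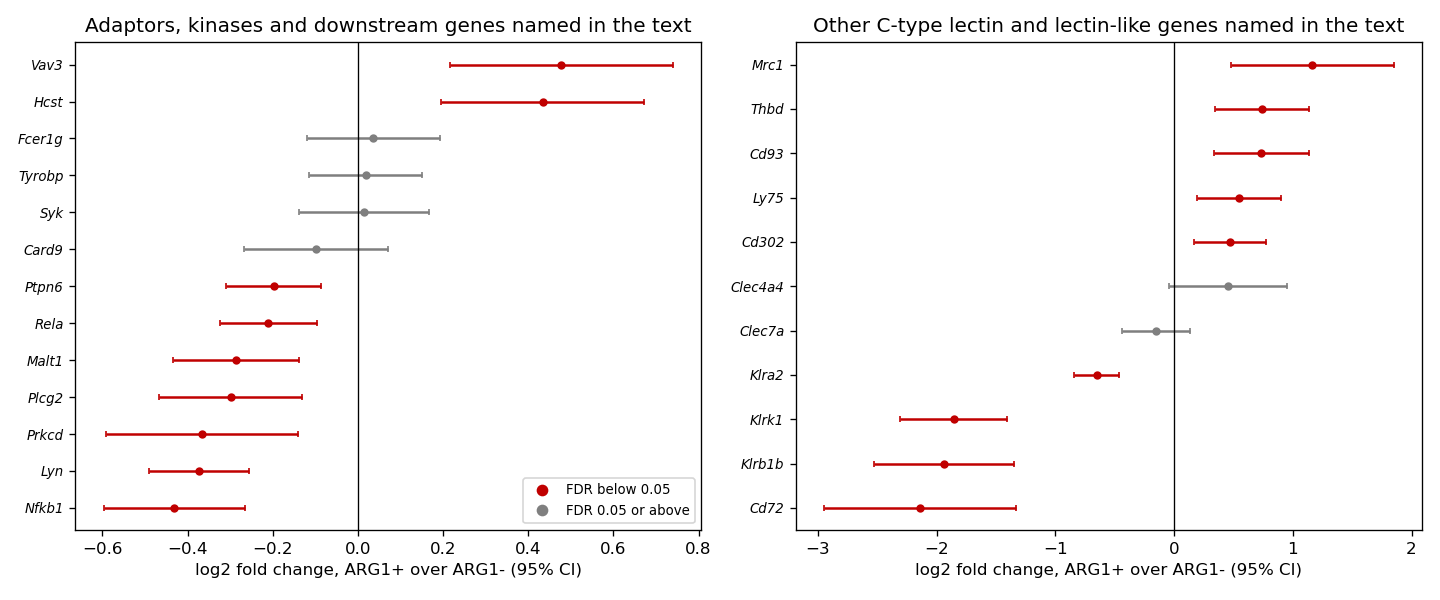
Log2 fold change, ARG1+ over ARG1- (x axes), with 95% confidence intervals for the adaptor, kinase and downstream genes (left) and the other C-type lectin and lectin-like genes (right) that the text names, red where the FDR is below 0.05. *Fcer1g*, *Tyrobp* and *Syk* sit near 0, *Nfkb1* and *Lyn* are lowest of those plotted on the left, and on the right *Cd72* is lowest and *Mrc1* highest of the genes plotted.

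Of 41 other genes with a C-type lectin or lectin-like domain, 22 were tested, 5 rose and 5 fell (8 and 6 with the block). The shares over all tested genes were 6.82% and 6.15% (16.8% and 18.3% with the block). *Clec7a* (Dectin-1), the receptor for beta-glucan and the gene with the highest CPM, was at 1669 ± 352 and 1856 ± 186 CPM (SD, n = 5 each; log2 fold change -0.15, 95% confidence interval -0.44 to 0.14, FDR 0.468). The genes that rose were *Mrc1*, the macrophage mannose receptor (1.16, standard error 0.315, FDR 0.0320), *Thbd* (0.74, FDR 0.0204), *Cd93* (0.74, FDR 0.0233), *Ly75* (0.55, FDR 0.0442) and *Cd302* (0.47, FDR 0.0440). Among those that fell were *Cd72* (-2.14, FDR 0.00393) and the killer cell lectin-like genes *Klrb1b* (-1.94, FDR 0.00121), *Klrk1* (-1.86, FDR 3.50e-04) and *Klra2* (-0.65, FDR 0.00101). Omitting single libraries or animals ended the call of *Mrc1* in 10 of 15 cases. *Clec4f*, *Clec4g*, *Cd207*, *Cd209b*, *Cd209f*, *Cd209g* and *Reg3g* had 0 counts in all libraries.

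Of 18 genes known to respond to these receptors or to feed them ligand, 2 rose and 1 fell (6 and 3 with the block). The shares over all tested genes were 6.82% and 6.15% (16.8% and 18.3% with the block). *Il1b*, the gene with the highest CPM, was at 2279 ± 516 and 2272 ± 449 CPM (FDR 0.992), with a log2 fold change of 0.0044 whose sign turned under several alternatives. The neutrophil chemokines *Cxcl1* (1.31, standard error 0.172, FDR 8.95e-04) and *Cxcl2* (0.62, standard error 0.114, FDR 0.00538) rose. *Il12b*, a subunit of interleukins 12 and 23, fell (-1.69, standard error 0.430, FDR 0.0251), a call lost in 6 of 15 omissions. *Il12b* was at 0.364 to 1.46 CPM in ARG1+ and 1.18 to 4.54 CPM in ARG1- cells, so it passed the filter only through the ARG1- libraries.

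Genes from the marker lists of other cell types also differed between the groups, including some from the neutrophil and T cell lists. The sort excluded these 2 cell types by Ly6G and CD3. *Ly6g* (0.0566 and 0.0285 CPM in ARG1+ and ARG1- cells) and *Cd3e* (0.0980 and 0.112 CPM) were below the filter. So were the neutrophil genes *Camp* and *Ngp* and the T cell genes *Cd3d*, *Cd3g* and *Trac*. The counts of the lists below stand beside 6.15% of all tested genes that fell and 6.82% that rose (18.3% and 16.8% with the block). Of 12 monocyte markers, all tested, 5 fell and 0 rose (6 and 4 with the block), and *Fn1*, with the highest CPM, had a log2 fold change of 0.46 (FDR 0.0776, and 7.93e-04 with the block). The summed monocyte list was at 13511 to 17211 CPM in ARG1+ and 9289 to 14405 CPM in ARG1- cells, lowest in the ARG1- library of m234. Of 12 microglia markers 1, *P2ry13*, fell (-0.72, FDR 0.0344), a call lost in 8 of 15 omissions, and with the block 10 fell. Of 12 markers of border-associated macrophages 8 were tested and 4 rose (8 with the block), *Pf4* most (1.88, standard error 0.315, FDR 0.00324), while *Apoe* had 0.45 (FDR 0.238, and 6.32e-04 with the block) and *Lyve1* and *Cd163* were below the filter. Of 14 neutrophil markers 5 were tested and 2 fell (3 fell and 2 rose with the block), *S100a9* most (-3.40, FDR 0.00977). *S100a9* was at 0.162 to 0.356 CPM in ARG1+ and 0.471 to 6.28 CPM in ARG1- cells, so it passed the filter only through ARG1- libraries. *Csf3r*, with the highest CPM, had -0.34 (FDR 0.175, and 0.00329 with the block). Of 14 T and NK cell markers 3 were tested and *Il7r* rose (0.90, FDR 0.00961), and with the block *Cd5* also fell. Of 10 B cell markers 3 were tested, *Cd22* rose (1.07, FDR 4.78e-04) and *Jchain* fell (-2.87, FDR 0.0184), and *Fcmr* and *Cr2* had 0 counts. *Jchain* was at 0 to 1.47 CPM in ARG1+ and 1.75 to 5.53 CPM in ARG1- cells, so it too passed the filter only through ARG1- libraries. The part of these cell types in the receptor values was not tested.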

How the data were processed

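Cells sorted from the spinal cord of 5 mice gave 10 libraries, 5 ARG1+ and 5 ARG1-. The authors aligned single-end reads of 50 bases, from a directional library kit, to GRCm38 with STAR (2.7.10b in the submitters' processing notes) and the basic Ensembl annotation, counted them on transcripts in Union mode and summed them to genes. The deposited values are whole read counts without normalization. The sources used here do not give whether counting used the strand.

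The 13740 genes that exceeded 1 CPM in 3 or more libraries were tested with edgeR 4.0.16 in R 4.3.3, by the quasi-likelihood test with TMM library sizes and Benjamini-Hochberg adjustment over all tested genes. A call is an FDR below 0.05, and the added limit of an absolute log2 fold change above 1 follows the study's methods. CPM values are TMM-scaled. Alternatives were DESeq2 1.42.0, limma-trend (limma 3.58.1), other library sizes and filters, the animal as a block, and omission of single libraries or animals. The edgeR fits without and with the block, limma-trend and DESeq2 were tested on simulated counts, which held no effect of the animal.

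The pairing comes from the animal numbers in the titles: deviations from the group mean correlated at 0.397 to 0.691 between libraries of the same animal and at most 0.0786 between others (across genes, which are not independent replicates). Exon lengths and 50-base stretches came from GENCODE M21 on the same build, and promoter windows from RefSeq. *Mgl2*, with 16 counts in its lowest library, has the least depth of the members. The members and lists were chosen with earlier results of these data known. Genes named are the 10 members, *Arg1*, a few fixed partners, and for each list the gene with the highest CPM and its largest changes. Other called partners, lectins and list genes were named after their values were seen. A few genes that these rules name are not reported here, but count in the list totals.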

Additional observations from a re-analysis of the deposited data

Results flagged for a closer look

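Single libraries stood apart from the other 4 of their group for 2 of 78 combinations of a named gene and a group, where chance flags about 1 in 20, and neither is one of the 10 lectin receptors. *P2ry13* was at 82.9 CPM in the ARG1- library of m234 against 40.5 to 47.2 CPM in the other ARG1- libraries. *Flt3* was at 0.0606 CPM in the ARG1+ library of m235 against 0.259 to 0.425 CPM in the other ARG1+ libraries.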

How the results depend on the processing

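*Clec5a* stayed lower with an FDR below 0.05 under all 8 alternative fits and all 15 omissions of a library or animal. The block for the animal changed the calls of *Clec4e* (-0.29), *Clec4d* (0.46), *Clec4a2* (0.28) and *Mgl2* (-1.11), so that 2 members were higher and 4 lower, and DESeq2 also called *Mgl2* (-1.20). It changed no other member's call. With a library or animal left out, log2 fold changes ranged from -0.41 to -0.19 for *Clec4e*, 0.32 to 0.57 for *Clec4d*, -0.33 to -0.27 for *Clec4a3*, -1.40 to -0.84 for *Mgl2* and -0.10 to 0.028 for *Clec4a1*, whose sign turned. Between 0 and 1 members were then higher and between 1 and 3 lower. In the edgeR fit without a block, with all libraries, 0 of either passed the added fold change limit. *Mgl2* passed both limits with the block (FDR 0.0141) and with DESeq2 (FDR 0.0226). It also did so without the ARG1- library or both libraries of m235. Of all tested genes, 937 were higher and 845 lower. The block gave 2307 and 2519, raw library totals 1282 lower and DESeq2 1307 lower, the fold change limit 77 and 122, and omissions 360 to 1037 higher and 284 to 911 lower. Raw library totals turned the sign of *Fcer1g* (-0.0029), *Tyrobp* (-0.022), *Syk* (-0.026) and *Il1b* (-0.035), and both limma-trend fits (-0.0083) and the block (-0.0087) also that of *Il1b*. Omissions gave -0.013 to 0.048 for *Tyrobp*, -0.020 to 0.069 for *Syk* and -0.080 to 0.13 for *Il1b*. Omissions fit fewer libraries. The cause of the other moves was not tested.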
